A study of Mus musculus with 16 samples.

Results

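Full-length IL-33 (FL) and mature IL-33 (M) were compared with each other in the 4 fibroblast libraries that carried these vectors, 1 FL and 1 M library from wild-type (WT) cells and 1 of each from ST2 knockout (KO) cells, out of 16 samples in the series. Each FL library was paired with the M library of its own genotype. The genes described are those, apart from Il33 itself, whose difference FL minus M had the same sign in WT and in KO, among genes with a mean of at least 10 normalized counts over the 8 fibroblast libraries. They numbered 7360 of 15527 genes (47.4%). At the edge of this limit, A730081D07Rik was kept with a mean of 10.002 and Gm10226 was left out with 9.997.

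Primary lung fibroblasts of C57BL/6 mice, wild-type or lacking the ST2 gene, were infected with an adenovirus and cultured for 72 h before RNA sequencing. The vectors coded for full-length IL-33, for the mature form or for no protein (NULL), and each genotype had 2 NULL libraries beside its FL and M library. All cells, controls included, were therefore infected with an adenovirus, and no uninfected library was analysed here. ST2, encoded by Il1rl1, is the receptor of secreted IL-33. Values are normalized counts per gene, and differences are on a log2(normalized count + 1) scale. The table labelled for unseparated lung cells holds the same values, and only the column titles name the cell type. Of the unseparated cells nothing is reported.

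IL-33 is an IL-1 family cytokine that is kept in the nucleus of barrier and stromal cells. Its full-length form has an amino-terminal part that binds chromatin, and proteases cut this part off to leave the mature cytokine, which binds ST2 on other cells or on the cell that made it. A cell that lacks ST2 can respond to IL-33 only without this receptor, whereas the nuclear form can act on its own cell.

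The Il33 transcript, which the vectors supplied, was not matched between the 4 libraries. It stood at 593840 normalized counts in the WT FL library and at 248956 in the WT M library, a ratio of 2.39. In KO it stood at 1080220 with FL and at 81110 with M, a ratio of 13.3. In the WT NULL pair it stood at 193 and 201, and in the KO NULL pair at 216 and 214. Il33 made up 2.12% of all normalized counts in WT FL, 1.04% in WT M, 3.70% in KO FL and 0.292% in KO M. These counts were not scaled by length and the lengths of the inserts were not known. The ratios of FL to M for Il33 therefore need not be those of transcript numbers. FL stood above M in both genotypes, so that the form of IL-33 and the amount of its transcript cannot be told apart in any result below. Il1rl1 held 33.9 normalized counts in WT FL, 70.7 in WT M, 79.2 in KO FL and 85.2 in KO M, beside 18.3 and 106 in the WT NULL pair and 73.1 and 69.2 in the KO NULL pair. A total over the gene does not show whether part of it is missing, and the genotype was taken from the labels.

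Libraries totalled 2.39e+07 to 2.92e+07 normalized counts, with 22193 to 23645 genes above 0, and the lowest total was that of WT M. Col1a1, the collagen gene that marks fibroblasts, was at 217130 to 381061 normalized counts in the 8 libraries, lowest in WT M. Markers of other cells were measured too. The summed level of 16 macrophage and monocyte markers was 24886 to 31367 in 7 libraries and 58566 in WT M, and that of 7 mesothelial markers was 417 to 1309 in 7 libraries and 4541 in WT M. The mean of 10 was reached by 4 of 14 lymphoid, 2 of 8 mast cell and 3 of 8 neutrophil markers. Sftpc, an alveolar type 2 marker, was at 1.36 and 0 with KO NULL but at 162 with KO FL and 156 with KO M. WT ran the other way, at 969 and 765 with NULL, 233 with FL and 147 with M. Sftpb was likewise above NULL with FL and M in KO and below it in WT. The sum of 7 such markers was 3578 and 3464 with KO NULL, 3426 with KO FL and 3688 with KO M. Sftpc and Sftpb, the latter at 55.8 with KO FL and 57.3 with KO M, are a small part of it. Etv5 alone held 1075 and 1019 with KO NULL, 950 with KO FL and 1038 with KO M. The sum therefore cannot show whether the 2 surfactant genes were followed by others. The part of alveolar cells in differences from NULL was not tested. In bulk samples, fewer cells of a type and less RNA per cell cannot be told apart.

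The direction of FL against M was shared between the genotypes in fewer genes than it was opposed. Of the 15526 genes apart from Il33, 3963 were higher with FL in both genotypes (25.5%), 3397 were higher with M in both (21.9%), 8138 had opposite signs and 28 were equal in a genotype. Across genes, the differences in WT and KO had a Pearson r of -0.049 and a Spearman coefficient of -0.082, given as a description, since genes of the same 4 libraries are not independent. The size of the difference also differed between genotypes. Its standard deviation over genes was 0.83 in WT and 0.46 in KO, beside 0.41 between the WT NULL libraries and 0.42 between the KO NULL libraries. The median absolute difference was 0.34 in WT and 0.12 in KO, against 0.11 and 0.093 within the NULL pairs. FL and M in KO thus lay about as far apart as a pair of control libraries, and FL and M in WT lay further apart.

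**Figure D1:**
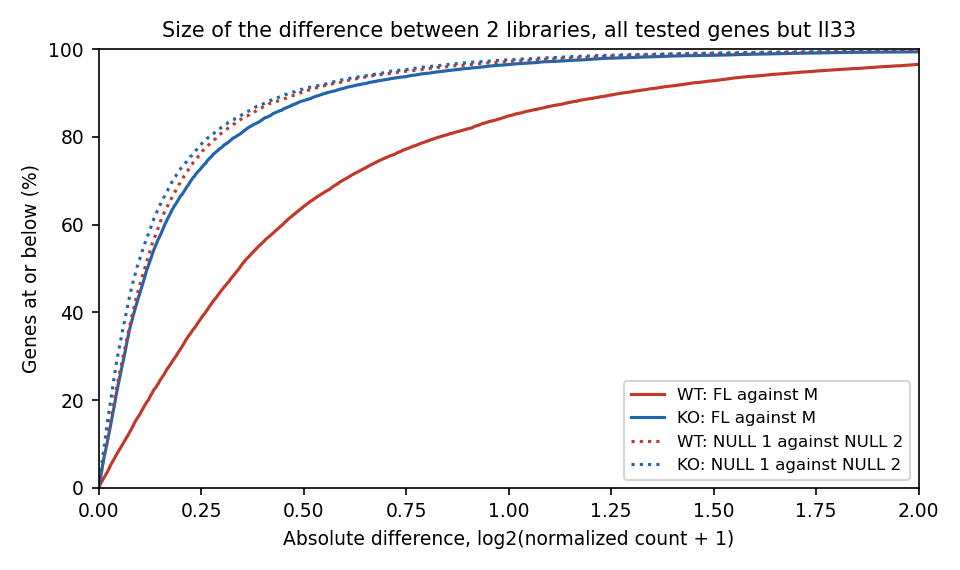
Cumulative share of genes (y axis, percent) at or below a given absolute difference between 2 libraries (x axis, log2 of normalized count + 1), for FL against M (solid lines) and for the NULL pairs (dotted lines) of WT (red) and KO (blue). The KO line for FL against M runs close to the dotted NULL lines, with a median of 0.12 against 0.11 and 0.093, and the WT line runs to their right, with a median of 0.34.

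With a limit of 1.5-fold in each genotype, 119 genes were above M with FL in both (0.766%) and 265 were above FL with M in both (1.71%), together 384 genes or 2.47% of those tested, while 450 genes passed the limit with opposite signs. The 384 genes were 8.09% of the 4744 genes past 1.5-fold in WT and 26.8% of the 1434 past it in KO. At 2-fold, 25 genes were on the side of FL (0.161%) and 74 on that of M (0.477%), together 0.638%, against 135 with opposite signs. Most of these genes had low levels. Among the 12558 genes with a mean of at least 50, 30 had FL above M and 52 had M above FL at 1.5-fold, and 5 and 10 at 2-fold. Within the NULL pairs, 434 genes in WT and 374 in KO differed by 2-fold, beside 2362 and 540 between FL and M.

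**Figure D2:**
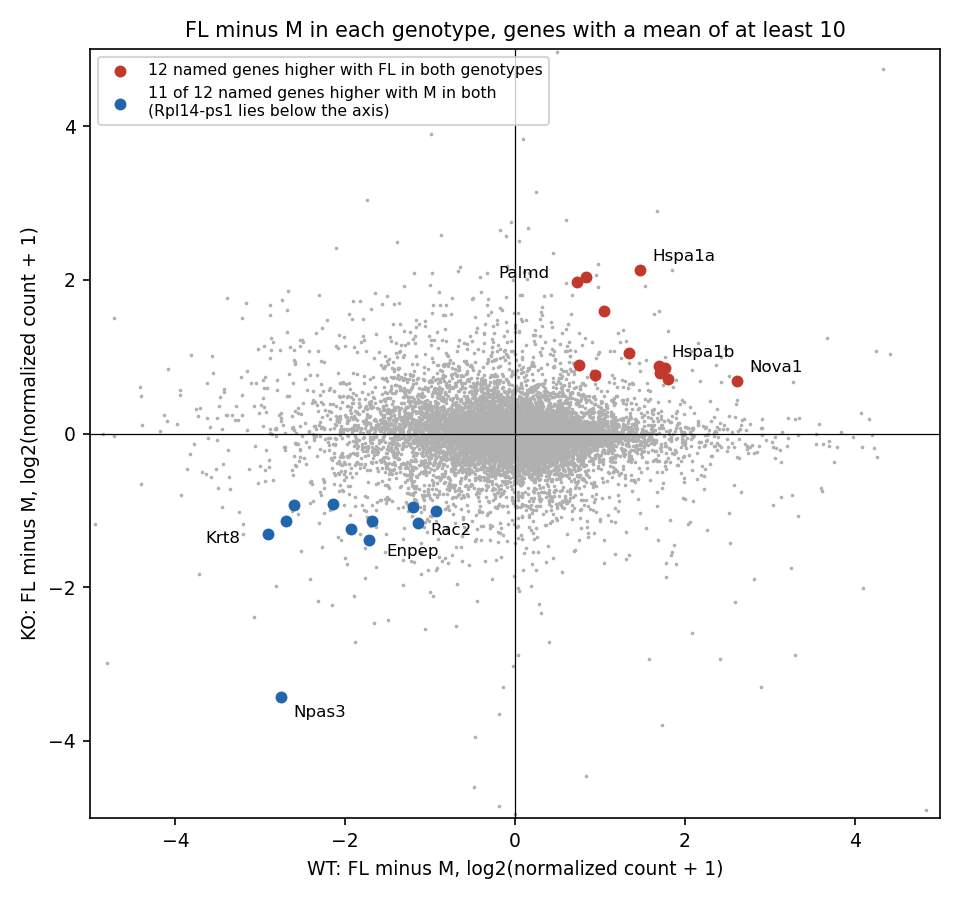
FL minus M in KO (y axis) against FL minus M in WT (x axis), in log2 of normalized count + 1, for all tested genes except Il33 (gray), with the named genes higher with FL in both genotypes (red) and higher with M in both (blue). The axes end at 5, and 37 genes lie beyond them. The cloud is wider along the WT axis, with a standard deviation of 0.83 against 0.46, and has no slope (r = -0.049).

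No gene passed a test of FL against M averaged over the genotypes. limma-trend, with genotype as a term and all 8 libraries, called 0 of 15527 genes at an adjusted p below 0.05 (0.0%), and the smallest adjusted p was 0.611. Without adjustment 886 genes had a p below 0.05 (5.71%), 404 of them higher with FL and 482 higher with M. The spread in this test holds the disagreement between the genotypes. In a fit of 6 groups, where the spread comes from the NULL pairs alone and each lone library is assumed to vary like them, FL against M called 5596 genes in WT (36.0%; 3122 higher and 2474 lower with FL) and 8 in KO (0.0515%; 5 higher and 3 lower). The difference between the genotypes passed in 3590 genes (23.1%). Among the 7360 genes with a shared sign, 2482 were called in WT (33.7%), 4 in KO (0.0543%) and 964 for the difference (13.1%), so that their shares in WT and KO were near those of all genes. The rule on the sign itself lowers the share called for the difference. The labels do not say whether libraries came from separate animals or cultures, so that the p-values cover the variation of these libraries alone, which may be technical.

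The genes of the inducible heat shock protein 70, Hspa1a and Hspa1b, were higher with FL than with M in both genotypes and higher with FL than in the NULL libraries. HSP70 is a chaperone that binds unfolded proteins, and heat shock factor 1 induces it when unfolded proteins accumulate. The genes are neighbours and near copies on chromosome 17 of GRCm38, Hspa1a at chr17:34969190-34972156 and Hspa1b at chr17:34956436-34959238, both on the minus strand. Hspa1a held 881 normalized counts in WT FL and 317 in WT M, beside 403 and 415 in the WT NULL pair. In KO it held 2081 with FL and 474 with M, beside 498 and 516 in the KO NULL pair. Both FL libraries lay above all other 6, whereas the M libraries lay below the NULL pair of their genotype.

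The ratio of FL to M for Hspa1a was 2.78 in WT (log2 1.47, limma adjusted p = 0.0001) and 4.39 in KO (log2 2.13, SE 0.10, limma adjusted p = 0.0018). Against the NULL mean it was 2.16-fold higher with FL in WT (adjusted p = 0.00127) and 4.10-fold higher in KO (adjusted p = 0.000936), all from limma. With M it was at 0.776 of the NULL mean in WT (adjusted p = 0.014) and 0.935 in KO (adjusted p = 0.836). Hspa1a ranked 1 by p among all genes in the averaged test (log2 1.80, SE 0.22), with a limma adjusted p = 0.611. The call in KO was lost with the NULL number as a block (adjusted p = 0.0636).

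Hspa1b held 2914 normalized counts in WT FL and 902 in WT M, beside 1898 and 1815 in the WT NULL pair. In KO it held 4876 with FL and 2647 with M, beside 2788 and 2749. Each FL library was again the highest of its genotype and each M library the lowest. The ratio of FL to M was 3.23 in WT (log2 1.69, limma adjusted p = 9.05e-06) and 1.84 in KO (log2 0.88, SE 0.07, limma adjusted p = 0.016). With FL it was 1.57-fold above the NULL mean in WT (adjusted p = 0.00187) and 1.76-fold in KO (adjusted p = 0.00618). With M it was at 0.486 of the NULL mean in WT (adjusted p = 1.96e-05) and at 0.956 in KO (adjusted p = 0.83). Its p in the averaged test ranked 4 among all genes (log2 1.29, SE 0.23, limma adjusted p = 0.611). The KO call was lost with the block (adjusted p = 0.177) and without either KO NULL library (adjusted p = 0.0985 and 0.116).

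Reads of the pair may be divided between the copies in more than 1 way. Of the stretches of 31 bases in the Hspa1a transcript, 63.8% also occur in that of Hspa1b, and 67.6% the other way round. The sum of both genes does not depend on this division. It was 3795 normalized counts in WT FL and 1219 in WT M, and 6957 in KO FL and 3121 in KO M, beside 2301 and 2229 in the WT NULL pair and 3286 and 3265 in the KO NULL pair. FL was 3.11-fold above M in WT and 2.23-fold in KO, and 1.68-fold and 2.12-fold above the NULL mean.

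The sequences before the start sites of both genes are shown because heat shock factor 1 acts there through inverted GAA repeats. Each is 250 bases of RefSeq sequence on GRCm38.p6, minus strand, 5′ to 3′, chr17:34972157-34972406 for Hspa1a and chr17:34959239-34959488 for Hspa1b. Capitals mark a match to GAANNTTC or TTCNNGAA, both of which read the same on either strand.
Hspa1a: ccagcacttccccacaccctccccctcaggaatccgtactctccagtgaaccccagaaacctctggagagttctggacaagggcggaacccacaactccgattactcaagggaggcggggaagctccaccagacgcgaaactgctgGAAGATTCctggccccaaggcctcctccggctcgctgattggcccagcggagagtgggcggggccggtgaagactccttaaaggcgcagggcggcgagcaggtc
Hspa1b: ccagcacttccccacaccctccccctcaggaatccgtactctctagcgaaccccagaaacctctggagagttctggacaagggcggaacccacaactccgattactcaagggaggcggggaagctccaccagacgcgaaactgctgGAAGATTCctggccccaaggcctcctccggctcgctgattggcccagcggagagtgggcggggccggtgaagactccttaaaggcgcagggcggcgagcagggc
Each window holds 1 match, GAAGATTC, whose first base is base 147 counted from the 5′ end of the window, 104 bases before the start site. The windows differ at 3 bases, C44T, T47C and T249G, with the base of Hspa1a first and positions counted from the 5′ end. Of 32851 RefSeq promoter windows of the same length, 4218 (12.8%) hold either motif. Of 17 listed heat shock genes with a window, 9 have a match in at least 1 window. The second count is by gene and the first by window, so that their shares are not alike in unit. A match is a run of letters, and binding was not measured.

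Other heat shock genes did not share this pattern. Of 22 measured heat shock proteins and co-chaperones, 5 were higher with FL in both genotypes, 2 were higher with M in both and 15 had opposite signs. Their median difference was -0.12 in WT and 0.12 in KO, beside 0.02 and 0.01 over all genes. In KO, 17 of the 22 were higher with FL, against 51.9% of all genes, and in WT 8 were, against 51.6%. Apart from the HSP70 pair, none reached 1.5-fold in both. Hsph1, a nucleotide exchange factor of HSP70, held 2475 normalized counts in WT FL and 3339 in WT M, and 3979 in KO FL and 3124 in KO M. Hsp90aa1, the inducible HSP90 gene, held 17972 and 26238 in WT, with 24346 and 20131 in KO. Hspb1, a small heat shock protein gene, was higher with FL in each, with 6298 against 5358 in WT and 11006 against 9666 in KO. In KO the test called Hspa1a and Hspa1b among the 22, against 0.0322% of all genes in this direction. In WT it called 6 as higher with FL and 10 as lower, against 20.1% and 15.9% of all genes.

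**Figure D3:**
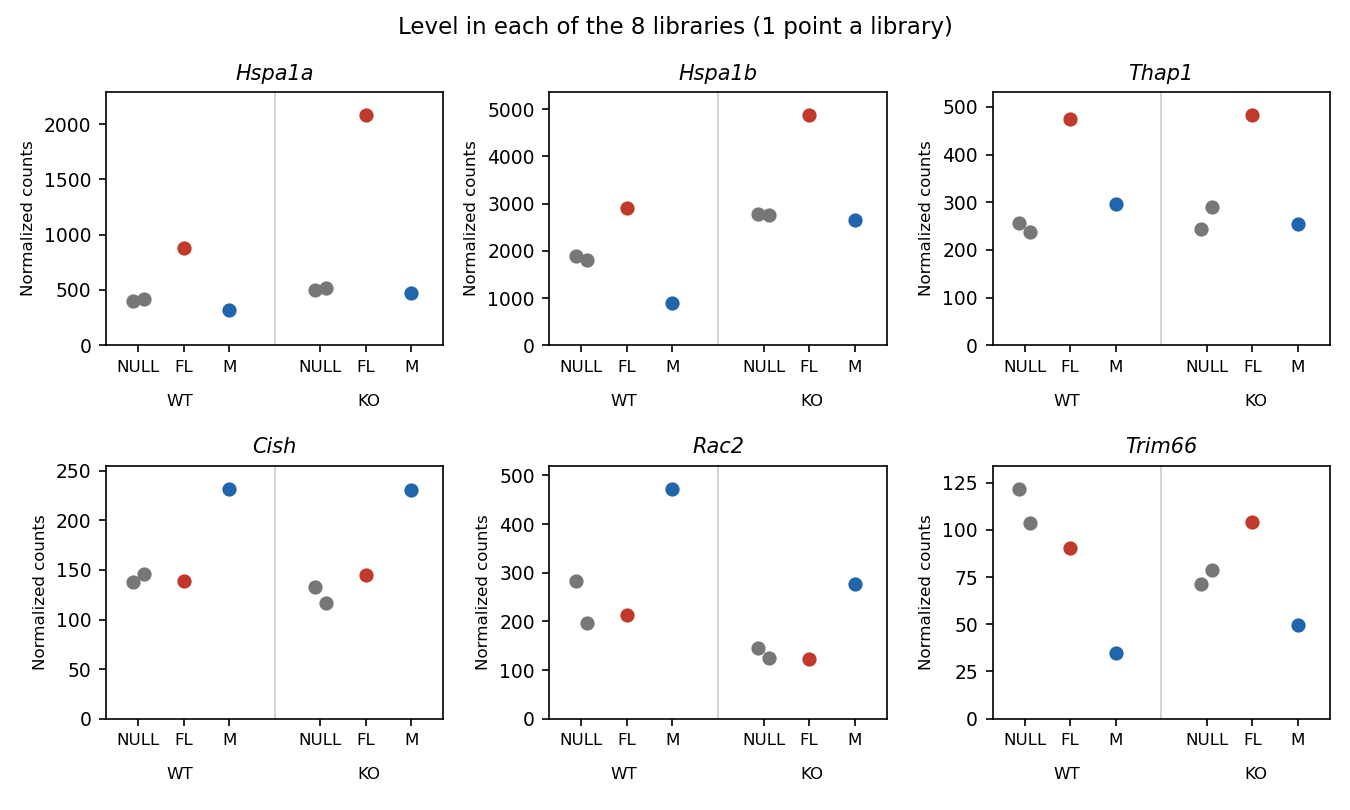
Normalized counts (y axis, from 0) in each of the 8 libraries, 1 point a library, for WT on the left and KO on the right of each panel, with NULL in gray, FL in red and M in blue. Hspa1a, Hspa1b and Thap1 are highest in both FL libraries of their genotype, at 475 and 483 for Thap1, Cish and Rac2 are highest in the M library of each genotype, at 232 and 231 for Cish, and Trim66 is lowest in both M libraries.

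Beside the HSP70 pair, the 12 named genes most clearly higher with FL in both genotypes hold regulators and structural genes of several kinds. They were ranked by the smaller of the WT and KO differences among genes with a mean of at least 50. Trim66, which encodes a chromatin reader of the tripartite motif family, held 90.2 normalized counts in WT FL, 34.9 in WT M, 104 in KO FL and 49.9 in KO M. The NULL pairs held 122 and 104 in WT, with 71.1 and 78.7 in KO, so that both M libraries lay below all others, and FL was on no common side of NULL. The averaged difference was 1.20 (SE 0.32, limma adjusted p = 0.611).

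Gli2, a transcription factor of Hedgehog signalling, had the same order. It held 379 normalized counts in WT FL and 108 in WT M, and 391 in KO FL and 239 in KO M, beside 429 and 354 in the WT NULL pair and 463 and 321 in the KO NULL pair. Again the M libraries were below all other 6 and the FL libraries lay within the range of the NULL libraries. Gp1bb, which encodes a subunit of the platelet glycoprotein Ib complex, held 102 and 30.5 with FL and M in WT and 62.6 and 36.0 in KO, below the NULL pairs in all 4 libraries.

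Nova1, a splicing regulator best known from neurons, held 531 normalized counts in WT FL and 86.0 in WT M, and 413 in KO FL and 256 in KO M. The WT NULL pair held 309 and 312 and the KO NULL pair 436 and 413, so that FL was above NULL in WT and not in KO, and M was the lowest library in each genotype. The ratio of FL to M was 6.17 in WT (limma adjusted p = 2.48e-05) and 1.61 in KO (limma adjusted p = 0.334).

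Tyw3 and Palmd had the larger difference in KO. Tyw3, an enzyme that modifies a base of phenylalanine transfer RNA, held 82.9 and 39.5 normalized counts with FL and M in WT and 119 and 39.0 in KO. Its NULL pairs held 37.0 and 43.6 in WT, with 110 and 147 in KO, so that FL stood above NULL in WT whereas M stood below it in KO. Palmd, which encodes palmdelphin, held 42.0 and 24.9 in WT, with 50.9 and 12.3 in KO, beside 98.6 and 115 in the WT and 29.9 and 30.1 in the KO NULL pair.

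The remaining members were Rtkn2, which encodes rhotekin 2, Rn7s1, a gene of the RNA of the signal recognition particle, L1cam, a cell adhesion molecule, and Cdkn3, a phosphatase of cyclin-dependent kinases. Their FL to M ratios ran from 1.70 to 3.54 in WT and from 1.71 to 4.11 in KO. Rn7s1 differed more within the WT NULL pair, with 693 and 222 normalized counts, than between WT FL and WT M, with 400 and 223. L1cam did as well, with 83.4 and 41.2 in the pair against 69.0 and 35.3. The 12 genes were chosen by the same WT and KO differences that the tests within a genotype use. How many of them pass these tests is therefore no separate support for them.

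**Figure D4:**
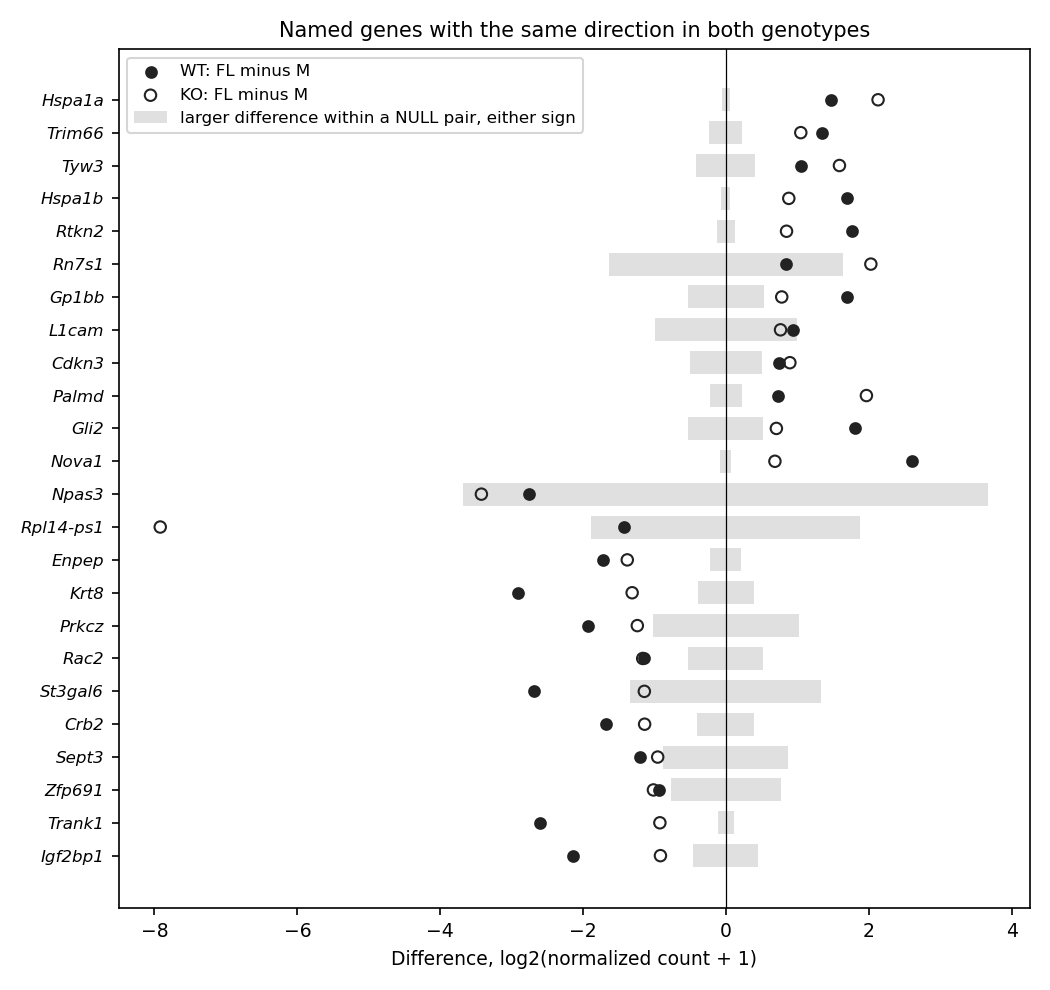
FL minus M (x axis, log2 of normalized count + 1) in WT (filled points) and KO (open points) for the 24 named genes with a shared direction, over the larger of the 2 NULL pair differences drawn to either side of 0 (gray bars). Hspa1a and Hspa1b have the narrowest bars of those with FL higher, and the bars of L1cam and Npas3 each reach past both points of their gene.

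On the side of M, the small GTPase gene Rac2, known from blood cells, differed by the same factor in both genotypes. It held 473 normalized counts in WT M and 213 in WT FL, and 277 in KO M and 123 in KO FL, beside 284 and 197 in the WT NULL pair and 144 and 125 in the KO NULL pair. M was the highest library of each genotype and FL lay within or just below the NULL pair. The ratio of M to FL was 2.22 in WT (limma adjusted p = 0.0156) and 2.25 in KO (limma adjusted p = 0.421), and the averaged difference was -1.16 (SE 0.20, limma adjusted p = 0.611), which ranked 3 by p among all genes.

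Krt8, a keratin of simple epithelia, held 343 normalized counts in WT M and 44.9 in WT FL, and 18.8 in KO M and 6.97 in KO FL. The NULL pairs held 82.0 and 108 in WT, with 7.09 and 9.19 in KO. The M to FL ratio was 7.64 in WT and 2.70 in KO, where the level was low in every library. None of the other 3 measured airway epithelial markers had the same sign in both genotypes, and their summed level was 118 in WT FL, 566 in WT M, 185 in KO FL and 165 in KO M. The part of such cells in the Krt8 values was not tested.

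Enpep, the gene of aminopeptidase A, which cuts angiotensin, held 203 normalized counts in WT M against 61.1 in WT FL and 40.5 in KO M against 15.0 in KO FL. Its NULL pairs held 34.7 and 31.7 in WT, with 28.1 and 24 in KO, so that FL was above NULL in WT and below it in KO. Igf2bp1, an mRNA binding protein gene, held 603 against 136 in WT and 81.2 against 42.6 in KO, with NULL pairs of 208 and 197 and of 104 and 76.0. The M library of KO was thus within its NULL pair and FL below it.

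Trank1 held 270 normalized counts in WT M against 43.5 in WT FL and 69.8 in KO M against 36.3 in KO FL, and M was above NULL in each genotype (35.9 and 38.0 in WT, 48.2 and 52.2 in KO). Prkcz, an atypical protein kinase C, St3gal6, a sialyltransferase, Crb2, a cell polarity protein, the septin gene Sept3 and the zinc finger gene Zfp691 had M to FL ratios of 1.92 to 6.56 in WT and 1.98 to 2.42 in KO. In KO, St3gal6 differed less between FL and M (log2 -1.14) than within the NULL pair (log2 1.34). For Prkcz, Crb2, Sept3 and Zfp691 the KO difference was larger than that within the KO NULL pair. Sept3 in KO M, at 43.7 normalized counts, still lay between its KO NULL libraries, at 61.6 and 33.1. Npas3, a neuronal transcription factor gene, stood at 103 and 7.10 within the KO NULL pair, which is wider than its difference between KO M, at 47.0, and KO FL, at 3.48. The pseudogene Rpl14-ps1 was listed at 0 in KO FL and at 241 in KO M, with 98.9 in WT FL and 267 in WT M. Its WT NULL pair held 37.3 and 140, a log2 difference of 1.88 beside 1.42 between WT FL and WT M. The part of read assignment among ribosomal protein copies in these values was not tested. Of the 12 genes, 8 passed the test in WT (Enpep, Krt8, Prkcz, Rac2, St3gal6, Crb2, Trank1 and Igf2bp1; 15.9% of all genes in this direction) and Rpl14-ps1 passed it in KO (0.0193%). These 12 genes, too, were chosen by the same WT and KO differences that the tests use. Their counts beside the shares of all genes are therefore no separate support for them.

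FL and M of a genotype were also set against the same NULL pair, which both comparisons share. Among the 30 genes with a mean of at least 50 that were 1.5-fold higher with FL in both, M was further from the NULL mean in 24 in WT and in 15 in KO. Their median against NULL was 0.11 with FL and -0.92 with M in WT, and 0.45 with FL and -0.41 with M in KO. Among the 52 genes higher with M, M was further from NULL in 45 in WT and in 20 in KO. Their median against NULL was -0.01 with FL and 1.30 with M in WT, and -0.61 with FL and 0.40 with M in KO. Predicted genes and pseudogenes made up 5 of the 30 and 12 of the 52. M was also further from NULL in 79% of all 12558 genes with a mean of at least 50 in WT and in 41.7% in KO. That library differed from its NULL pair in 7650 genes (49.3%), WT FL in 1148 (7.39%), KO FL in 37 (0.238%) and KO M in 5 (0.0322%).

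Genes in which both FL or both M libraries stood outside all other 6 libraries were counted after the values were seen. Both FL libraries were above all others in 248 genes (1.6%) and below in 293 (1.89%), and both M libraries were above in 714 (4.6%) and below in 912 (5.87%). Thap1, a zinc finger transcription factor gene chosen from these counts, held 475 normalized counts in WT FL and 483 in KO FL against 237 to 296 in the other libraries. Its averaged difference was 0.80 (SE 0.15, limma adjusted p = 0.611). Hoxc4, a homeobox gene, was lowest in the FL libraries, at 56.0 and 61.8 against 80.3 to 187 elsewhere.

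Cish, a feedback inhibitor of cytokine receptors that STAT5 induces, was highest in the M libraries. It held 232 normalized counts in WT M and 231 in KO M against 117 to 146 in the other 6 libraries, an M to FL ratio of 1.67 in WT and 1.59 in KO. The averaged difference was -0.70 (SE 0.16, limma adjusted p = 0.611). Of the 13 listed IL-6 family, receptor and SOCS genes, 6 were higher with FL in both genotypes and 3 with M, so that Cish was not followed by its list. Oxnad1, chosen in the same way, was also highest in both M libraries, at 447 and 386 against 203 to 261. Akr1c14, an aldo-keto reductase gene with low levels, was named after its p was seen, the second smallest of the averaged test. It held 78.6 with FL and 23.6 with M in WT and 55.6 and 17.8 in KO, beside 41.3 and 53.3 in the WT NULL pair and 45.3 and 35.3 in the KO NULL pair, so that each FL library was the highest and each M library the lowest of its genotype.

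Several gene lists had a wide gap between FL and M in WT and a median near 0 in KO. Collagens and other matrix genes had a median difference of 1.21 in WT and -0.00 in KO. Of 30, 13 were higher with FL in both genotypes and 0 with M, beside 25.5% and 21.9% of all genes. Taken singly, 29 of the 30 were higher with FL in WT and 14 in KO, against 51.6% and 51.9% of all genes. In WT, 27 of the 30 were called higher with FL (20.1% of all genes were) and in KO 0 were. The differences shared with KO were small there. Col6a3, a chain of type VI collagen, held 7059 normalized counts in WT FL and 3046 in WT M, and 10787 in KO FL and 9916 in KO M. Tnc, the matrix protein tenascin C, held 45446 and 30044 in WT, with 76828 and 71205 in KO. With quantile normalization 6 of the 30 were higher with FL in both and 4 with M. Fibroblast markers followed the same course, with a median of 1.17 in WT and -0.03 in KO over 19 genes. Of these, 7 were higher with FL in both and 2 with M, and 16 were higher with FL in WT and 8 in KO. Dpt, a dermatopontin gene and fibroblast marker, held 46.0 and 8.05 in WT, with 416 and 334 in KO. The summed level of the fibroblast markers was 748825 in WT FL, 378942 in WT M, 545450 in KO FL and 558959 in KO M.

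Matrix proteases and inhibitors had 6 of 21 members higher with FL in both genotypes and 0 with M, with medians of 0.43 and 0.06. Mmp19, a matrix metalloproteinase gene, held 1483 normalized counts in WT FL and 887 in WT M, and 1307 in KO FL and 1182 in KO M. Contractile genes had 6 of 15 and 0, with medians of 0.51 and -0.01, and with quantile normalization 1 and 2. Of the 15, 14 were higher with FL in WT and 7 in KO. Myl9, a myosin light chain gene, held 35826 and 19231 in WT, with 46483 and 45482 in KO.

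Inflammatory genes ran the other way. Of 28 NF-kB dependent cytokines and chemokines, 17 were higher with M in both genotypes and 1 with FL. Their median was -1.91 in WT and -0.07 in KO. Taken singly, 1 of the 28 was higher with FL in WT and 11 in KO, against 51.6% and 51.9% of all genes. In WT 24 were called lower with FL (15.9% of all genes were) and in KO 0. Cxcl1, a chemokine that draws neutrophils, held 730 normalized counts in WT M against 50.6 in WT FL, and 35.5 in KO M against 29.4 in KO FL. Ccl20, a chemokine for lymphocytes and dendritic cells, held 430 and 38.6 in WT, with 74.3 and 56.1 in KO. The KO NULL pair held 27.0 and 32.7 for Cxcl1, around the FL value, and 83.3 and 86.1 for Ccl20, above FL and M. Macrophage and monocyte markers had 7 of 16 higher with M in both and 0 with FL, with medians of -1.22 and 0.03. None of the 16 was higher with FL in WT, so that none could be so in both, and 9 were in KO. Their summed level in KO was 31367 with FL and 30458 with M. C1qc, a complement gene of macrophages, held 1624 in WT M and 709 in WT FL, and 807 in KO M and 739 in KO FL. The part of macrophages in the inflammatory values was not tested.

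**Figure D5:**
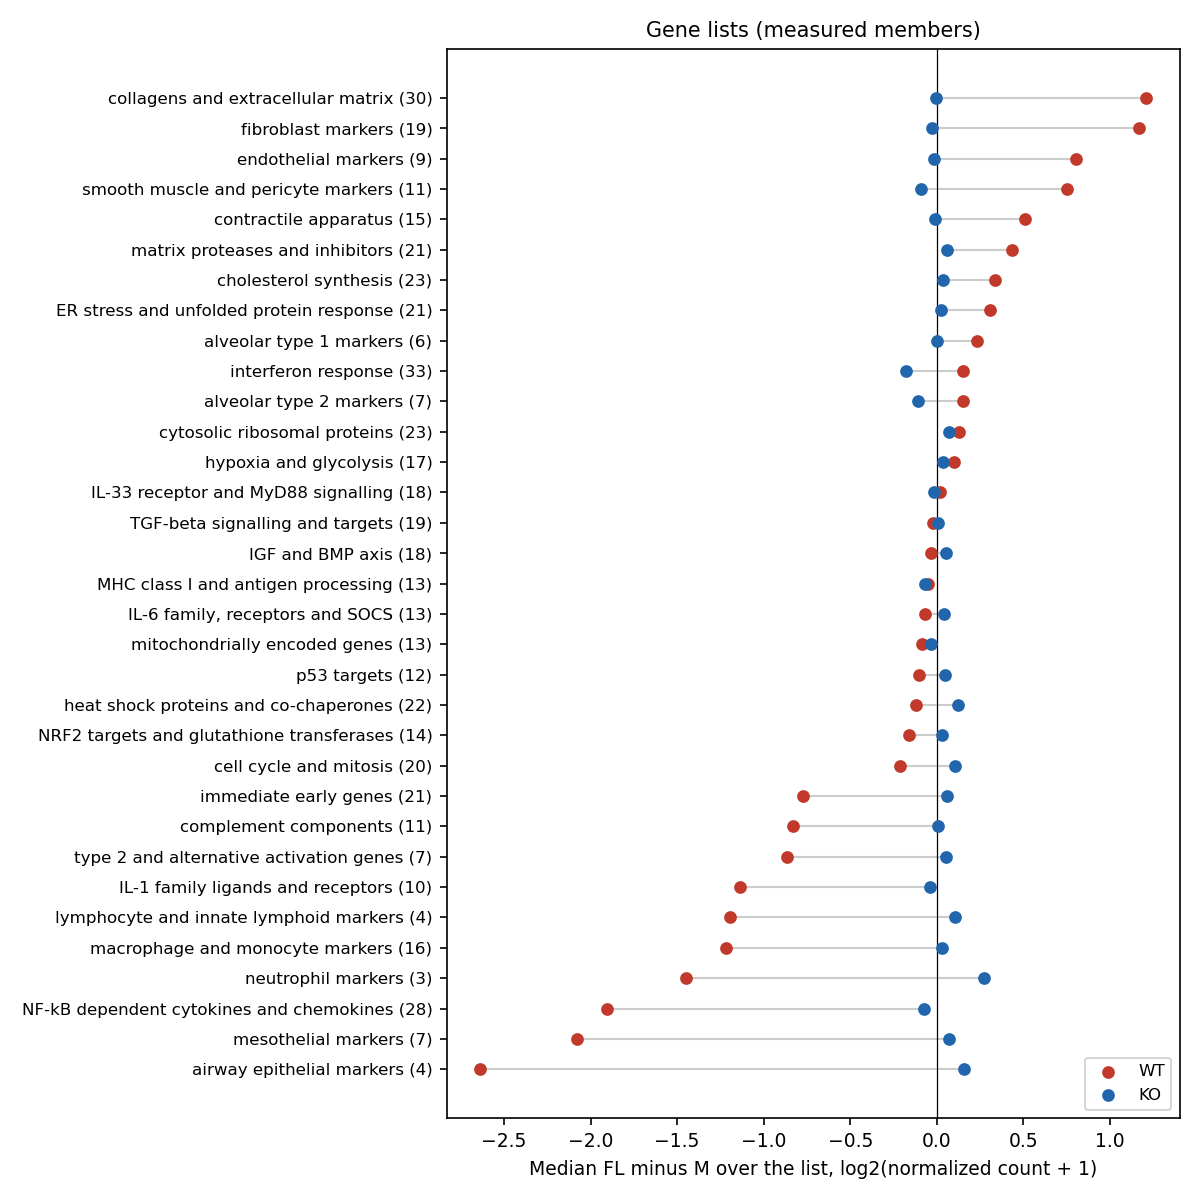
Median FL minus M (x axis, log2 of normalized count + 1) of each gene list with at least 3 measured members in WT (red) and KO (blue), lists ordered by the WT median and followed by their number of measured genes. The KO medians lie between -0.18 and 0.27, whereas those of WT run from -2.64 for airway epithelial markers to 1.21 for matrix genes.

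Other lists had small median differences, and their counts stand beside 25.5% of all genes higher with FL in both genotypes and 21.9% higher with M. ER stress genes, which restore protein folding in the endoplasmic reticulum, were higher with FL in both genotypes in 14 of 21 and higher with M in 1, with medians of 0.31 and 0.03. Trib3, a pseudokinase gene induced by this stress, held 1807 normalized counts in WT FL and 1439 in WT M, and 1291 in KO FL and 1117 in KO M. Creld2, a chaperone gene of the same response, held 1141 and 921 in WT, with 1345 and 1191 in KO. With quantile normalization 9 of the 21 were higher with FL in both and 3 with M. Cholesterol synthesis genes were higher with FL in both in 10 of 23 and with M in 0, with medians of 0.34 and 0.04. Taken singly, 20 of the 23 were higher with FL in WT and 13 in KO, against 51.6% and 51.9% of all genes. Genes of cytosolic ribosomal proteins were higher with FL in both in 16 of 23 and with M in 1, with medians of 0.13 and 0.07, but with quantile normalization the median in WT was -0.09 and 2 were higher with FL in both. Rps6 held 11818 and 10411 in WT, with 11587 and 10262 in KO.

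MHC class I and antigen processing genes were higher with M in both genotypes in 9 of 13 and with FL in 0, with medians of -0.05 and -0.07. Nlrc5, the transactivator of MHC class I genes, held 79.8 normalized counts in WT M and 49.7 in WT FL, and 110 in KO M and 65.7 in KO FL, a ratio of 1.60 and 1.68. The KO NULL pair held 104 for each library, so that FL was below and M near NULL there, whereas the WT NULL pair held 40.3 and 56.0 around the FL value. Interferon response genes were higher with M in both in 13 of 33 and with FL in 1. In KO 1 of the 33 was higher with FL (median -0.18), and in WT 20 were (median 0.15). Mitochondrially encoded genes were higher with M in both in 6 of 13 and with FL in 0.

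Of 21 immediate early genes, 6 were higher with FL in both genotypes and 4 with M, near the shares over all genes. Dusp6, a phosphatase of ERK that ERK signalling induces, held 1528 normalized counts in WT M and 373 in WT FL, and 774 in KO M and 647 in KO FL. Egr2, a zinc finger transcription factor gene, held 215 and 57.7 in WT, with 301 and 251 in KO. Hypoxia and glycolysis genes were higher with FL in both in 8 of 17 and with M in 1, and with quantile normalization in 5 and 4. Pdk1, a kinase that holds back pyruvate oxidation, held 1470 in WT FL, 777 in WT M, 1096 in KO FL and 913 in KO M. Gdf15, a stress cytokine gene of the p53 list, held 1729, 732, 1426 and 1255 in the same order. Over all 34 lists, the averaged test called 0 members, and in KO the calls were those of Hspa1a, Hspa1b and Il33 itself.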

How the data were processed

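RNA sequencing of 8 fibroblast libraries was analysed: per genotype 2 NULL, 1 FL and 1 M, all at 72 h. The authors deposited a signal per gene in normalized counts. Salmon, DESeq2 and the build GRCm38.p6 are named in the submitters' processing notes, without versions in the sources used here. Of 434648 cells compared between the 2 deposited tables, 2 were not identical (largest relative difference 6.46e-15). Depth in reads is unknown: 59.9% to 71.3% of values up to 12 were whole multiples of the smallest step within a tolerance of 0.02, so whole reads were not recovered, and no counting intervals are given. Normalized counts were not scaled by length, and levels were not compared between genes.

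The table lists 54331 genes, 54097 with a symbol by GENCODE or gene ID, and 30284 above 0. A mean of 10 or more across the 8 libraries kept 15527 genes. Values were taken as log2(value + 1), a scale that understates the change of low genes. limma-trend (limma 3.58.1, R 4.3.3) was two-sided with Benjamini-Hochberg adjustment over all tested genes and a threshold of 0.05. The averaged test used an additive model of genotype and infection (4 residual degrees of freedom). The tests within a genotype, against NULL and of the difference between genotypes used 6 groups (2 residual degrees of freedom), on the assumption that a lone library varies as the NULL pairs do. The script was tested on simulated data. Where a symbol occurred more than once, the gene with the highest mean stood for it.

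After Il33 and Il1rl1, the text names the 12 in each direction with the largest smaller difference among genes with the same sign, a mean of at least 50 and no predicted name, up to 3 with the same sign from each of 34 lists by the same ranking, and up to 5 per test and direction. The members, lists and alternatives were chosen with earlier results of these data known. Promoters came from RefSeq on GRCm38.p6. NULL numbers are shared between genotypes, their deviations had a correlation of 0.023, and FL and M carry no number. The numbers were therefore not used to pair samples in the main tests. The correlation cannot show whether libraries of the same number were prepared together. Alternatives were an added value of 0.5 or 8, quantile normalization or TMM factors, no filter or a mean of 50 or more, 6 groups or 4 libraries for the averaged test, the replicate block and leaving out each library. Scripts ran in Python 3.11.15 with pandas 2.3.3, matplotlib 3.10.9 and numpy 2.4.6.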

Additional observations from a re-analysis of the deposited data

Results flagged for a closer look

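The difference of FL minus M between the genotypes (KO minus WT) passed the limma test in 3590 genes, in a fit whose spread comes from the NULL pairs alone. Values here are KO minus WT on the log2 scale, so that a positive value means that FL stood higher relative to M in KO than in WT. The HSP70 pair had a shared direction and still differed in size, with 0.66 for Hspa1a (SE 0.15, limma adjusted p = 0.0205) and -0.81 for Hspa1b (SE 0.10, limma adjusted p = 0.00183). The call of Hspa1a was lost without either KO NULL library (limma adjusted p = 0.0519 and 0.0514). The part of read division between these near copies in the opposite signs was not tested. The FL to M ratio of their sum was 3.11 in WT and 2.23 in KO. Among the other named genes with a shared direction, the difference was -1.93 for Nova1, 1.68 for Trank1 and -6.50 for Rpl14-ps1, which is listed at 0 in KO FL.

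Saa3, Cxcl5 and Lce1g were high in WT M alone. Saa3, an acute phase gene, held 5020 normalized counts in WT M, 94.4 in WT FL, 131 in KO FL and 123 in KO M, a difference of 5.81. Cxcl5, a neutrophil chemokine gene, held 362, 16.3, 9.47 and 8.72 in that order (4.49), and Lce1g, a gene of the cornified envelope, 699, 25.6, 88.3 and 90.7 (4.68). Gpr165, an orphan receptor gene, was low in WT M, at 1.99 against 188 in WT FL, 6.41 in KO FL and 14.7 in KO M (-7.07). The values of Rpl30-ps9 (12.45) and Gm43535 (-7.14) rest on libraries listed at 0.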

How the results depend on the processing

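The averaged test called 0 genes with an added 0.5 or 8, no filter, a mean of 50 or more, quantile normalization, TMM factors, the replicate block and the 4 FL and M libraries alone. It called 3160 with 6 groups, where the disagreement of the genotypes leaves the spread, and 0 to 5052 when a library was left out: 5052 without KO M and 2 without WT M, Il33 and Gm47204. In KO the 8 calls became 1271 with no filter, 1 with the replicate block and 5 to 9 when a library was left out. The WT count of 5596 ran from 4517 to 5832 and the count for the difference of 3590 from 2457 to 3797 when a library was left out, and stood at 4615 and 2522 with the block. Genes with a shared direction numbered 10828 with no filter and 5927 with a mean of at least 50, and those past 1.5-fold 1998 and 82, or 213 with an added 8. Without WT M, averaged differences turned sign for Ccl20 (range over left-out libraries -3.997 to 0.15), Cxcl1 (-4.38 to 0.29), Hspb1 (-0.0042 to 0.42), Col6a3 (-0.17 to 1.51), Myl9 (-0.11 to 1.04), Hsp90aa1 (-0.51 to 0.24) and Hsph1 (-0.30 to 0.22), the last 2 also without WT FL. The WT difference of Rps6 was -0.064 with quantile normalization. For Hspa1a the averaged difference was 1.80 with 6 groups and 1.78 without KO M. Where an FL or M library was left out, the term of its vector rested on the library of the other genotype alone. Disagreement of the genotypes about that vector could then not enter the spread, and the difference was not an average over both. Other reasons for these changes were not tested. With 1 library per vector and genotype, the spread of FL and M libraries is unknown, and genes near a mean of 10 rest on few reads.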

Other observations

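Ivl and Insc were among the largest differences between FL and M in WT. Ivl, which encodes involucrin, a protein of the cornified envelope, held 2616 normalized counts in WT M, 123 in WT FL and 118 and 114 in the WT NULL pair (FL against M limma adjusted p = 5.97e-06). In KO it held 124 with FL, 196 with M and 199 and 209 with NULL, so that its sign was shared and KO FL was the lowest library of its genotype. Insc, an adaptor gene of spindle orientation, held 81.6 in WT FL and 3.41 in WT M, beside 212 and 176 in the WT NULL pair (limma adjusted p = 0.000171), and 33.7 and 38.4 in KO FL and KO M.

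Osmr, Grem1, C2 and Vwf had a shared sign in both genotypes. Osmr, a receptor subunit for oncostatin M, held 4823 normalized counts in WT FL, 2527 in WT M, 3713 in KO FL and 3417 in KO M. Grem1, an antagonist of bone morphogenetic proteins, held 13325, 9419, 12664 and 11250 in the same order. C2, a complement gene, was higher with M, at 402 against 91.3 in WT and 125 against 87.5 in KO. Vwf, an endothelial gene, was higher with FL, at 116 against 74.0 in WT and 69.2 against 32.0 in KO, beside 41.9 and 37.6 in the WT and 28.2 and 19.4 in the KO NULL pair. Of 9 measured endothelial markers, Vwf included, 2 were higher with FL in both genotypes, 0 with M, and 7 had opposite signs. Their median difference was 0.80 in WT and -0.01 in KO. The summed level of these 9, of which Vwf is a part, was 620 in WT FL, 499 in WT M, 300 in KO FL and 258 in KO M.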
